A study of Mus musculus with 11 samples.

Results

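Major histocompatibility complex (MHC) class I presentation was described through 10 genes: the class I heavy chains H2-K1 and H2-D1, their light chain B2m, the peptide pump genes Tap1 and Tap2, the loading chaperone Tapbp, the immunoproteasome subunits Psmb8, Psmb9 and Psmb10, and the trimming peptidase Erap1. The rows were those whose platform annotation gave 1 of these symbols, with the brightest transcript cluster taken where a symbol had several. All 10 genes had a single cluster, out of 19505 genes with a symbol and 22206 clusters in all. Liver sinusoidal endothelial cells (LSEC), the fenestrated cells that line the hepatic capillaries, were profiled on 11 Clariom S Mouse arrays, whose values are given per transcript cluster. Mice were 8 weeks old when a high fat diet began and were fed it for 2 weeks. All animals carried floxed Atg5 alleles (Atg5lox/lox), the gene of a protein needed to form autophagosomes. The wild type group had no Cre (6 arrays), and the knockout group, titled autophagy deficient, also carried VE-cadherin-Cre (5 arrays), whose promoter is active in endothelium of all organs and not in LSEC alone. The titles number the arrays as biological replicates and leave unsaid whether each was an animal or a pool; p-values therefore measure only the spread between these samples. The question was how the class I genes stood in LSEC with and without endothelial Cre early in high fat feeding.

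In class I presentation, proteasomes cut cytosolic proteins into peptides, and the TAP1-TAP2 transporter carries the peptides into the endoplasmic reticulum. There ERAP1 trims them, tapasin (Tapbp) bridges the transporter to empty class I molecules, and a heavy chain paired with beta-2-microglobulin takes a peptide to the cell surface for CD8 T cells to inspect. Interferon gamma replaces the catalytic subunits of the standard proteasome with those encoded by Psmb8, Psmb9 and Psmb10, and LSEC are known to present antigen taken up from portal blood to CD8 T cells.

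Of the 10 genes, 7 lie on mouse chromosome 17 (H2-K1, H2-D1, Tap1, Tap2, Tapbp, Psmb8 and Psmb9), and B2m, Psmb10 and Erap1 lie on chromosomes 2, 8 and 13. The RefSeq gene table lists H2-DMb1, Psmb9, Tap1, Psmb8, Tap2 and H2-Ob one after another. Upstream sequence was taken from RefSeq on build GRCm38.p6, and 9 of the 10 genes had a window of 250 bases before an annotated start; Tap2 did not. A set of 4 motifs was searched on both strands of these windows. They were GAAA repeated after any 2 bases (the core of an interferon-stimulated response element), AANNGAAA (the core read by interferon regulatory factors, which lies inside every match of the longer one), TTCNNNGAA (the gamma-activated site) and the NF-kB site.

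The interferon regulatory factor core was found upstream of 3 of the 9 genes (H2-K1, H2-D1 and B2m) and in 21.3% of all 32851 RefSeq windows. The NF-kB site was found upstream of the same 3 genes and in 3.9% of all windows. The longer interferon element was found upstream of B2m alone among the 9 (2.98% of all windows), and the gamma-activated site upstream of Psmb8 alone (7.02%). A match describes letters and is not a binding site.

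The window of B2m is shown because both motifs lie within a short stretch of it (chr2:122147437-122147686, plus strand, capitals mark the interferon regulatory factor core and then the NF-kB match):
B2m: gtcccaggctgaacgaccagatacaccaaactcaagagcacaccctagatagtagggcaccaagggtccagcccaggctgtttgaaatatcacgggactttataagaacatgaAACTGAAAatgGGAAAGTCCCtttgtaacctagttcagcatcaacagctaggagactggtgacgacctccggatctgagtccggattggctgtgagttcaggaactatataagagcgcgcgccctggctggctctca

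Psmb9 and Tap1 start in opposite directions with 225 bases between their annotated starts. This stretch is shown because both genes varied together on the arrays, as other pairs of the set also did (chr17:34187331-34187555, plus strand). None of the 4 motifs was found in it:
Tap1/Psmb9: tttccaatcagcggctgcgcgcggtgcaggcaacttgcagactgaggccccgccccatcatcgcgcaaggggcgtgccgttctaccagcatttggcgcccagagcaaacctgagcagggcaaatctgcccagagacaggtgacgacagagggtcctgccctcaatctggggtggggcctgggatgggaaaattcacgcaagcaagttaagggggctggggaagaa

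The matching 30 bases upstream of both heavy chain genes are shown because their array values also varied together (H2-K1 at chr17:34000429-34000458, minus strand; H2-D1 at chr17:35262923-35262952, plus strand; capitals mark the NF-kB match and then the interferon regulatory factor core):
H2-K1: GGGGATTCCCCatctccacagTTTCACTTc
H2-D1: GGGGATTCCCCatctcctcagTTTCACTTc

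These stretches share 29 of 30 bases, and the substitution is A18T with the H2-K1 base first and positions counted from 1 at the 5′ end. H2-K1 and H2-D1 are close copies, and whether the array's probes tell their transcripts apart was not checked.

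The deposited values are log2 signals, so a difference of 1 is a 2-fold change. Array medians lay between 6.61 and 6.75, and precision is limited by the number of arrays. All 15 LSEC markers (such as Stab2 and Lyve1) were above the antigenomic background probes on every array, with list means of 11.81 to 12.14 in wild type and 11.83 to 12.12 in knockout. Macrophage markers were also present, with list means of 6.95 to 8.30 in wild type and 7.48 to 10.04 in knockout, and 15 of 17 were higher in knockout by the study's rule (fold of at least 1.5 and unadjusted p of at most 0.05). Hepatocyte list means ran from 8.91 to 10.40 in wild type and from 7.98 to 9.63 in knockout, and 13 of 20 markers were lower in knockout by that rule. None of the T cell (6), NK cell (6), B cell (3), dendritic cell (6), neutrophil (4), stellate cell (6) and cholangiocyte (4) markers passed the rule. All 6 stellate cell markers were nonetheless higher in knockout (median difference 0.43). All 3 B cell markers (median -0.05) and all 4 cholangiocyte markers (median -0.26) were lower. Of the latter, 2 had an unadjusted limma p of at most 0.05, as had 840 of all 22206 clusters downwards. The T cell, NK cell, dendritic cell and neutrophil lists held both directions. T cell list means were 5.34 to 5.98 in wild type and 5.56 to 6.23 in knockout, and those of NK cells 5.56 to 6.15 and 5.44 to 6.95. These lie near the antigenomic background means of 4.67 to 5.17. In both lists 4 of 6 markers were above background on every array. The mean of the intron control probes separated the arrays into 4 with 5.75 to 5.96 (wild type 1 and 6, knockout 3 and 4) and 7 with 5.05 to 5.38, while exon controls stayed between 8.46 and 8.69. The same 4 arrays had lower antigenomic background means (4.67 to 4.88 against 4.90 to 5.17). Their array medians were also lower (6.61 to 6.65 against 6.66 to 6.75), both without overlap. Y-linked genes were expressed on wild type arrays 3 and 6 and knockout array 3, so both sexes were present, and with their mean in the fit all 10 class I differences were above 0 (0.01 to 0.24).

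No class I gene passed a test between genotypes, and all 10 were expressed well above background. Every member's mean was nominally higher in knockout, by 0.03 (Tapbp) to 0.19 (Psmb9) on the log2 scale with a median of 0.13. Over all 22206 clusters 45.9% had a difference above 0 and the median was -0.02; over the 11103 brighter clusters, 61.7% had one and the median was 0.05. With limma (Benjamini-Hochberg adjustment over all clusters), 0 of 10 members and 0 of 22206 clusters (0%) had an adjusted p of at most 0.05. An unadjusted limma p that low was found for 0 of 10 members, and for 579 clusters upwards and 840 downwards of the 22206. By the study's rule 0 of 10 members were called, where 0.671% of clusters were called higher and 0.356% lower in knockout. For 0 of 10 members did every knockout array lie above every wild type array, against 0.18% of clusters. Within bulk RNA, fewer cells of a type and less RNA per cell cannot be told apart.

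**Figure D1:**
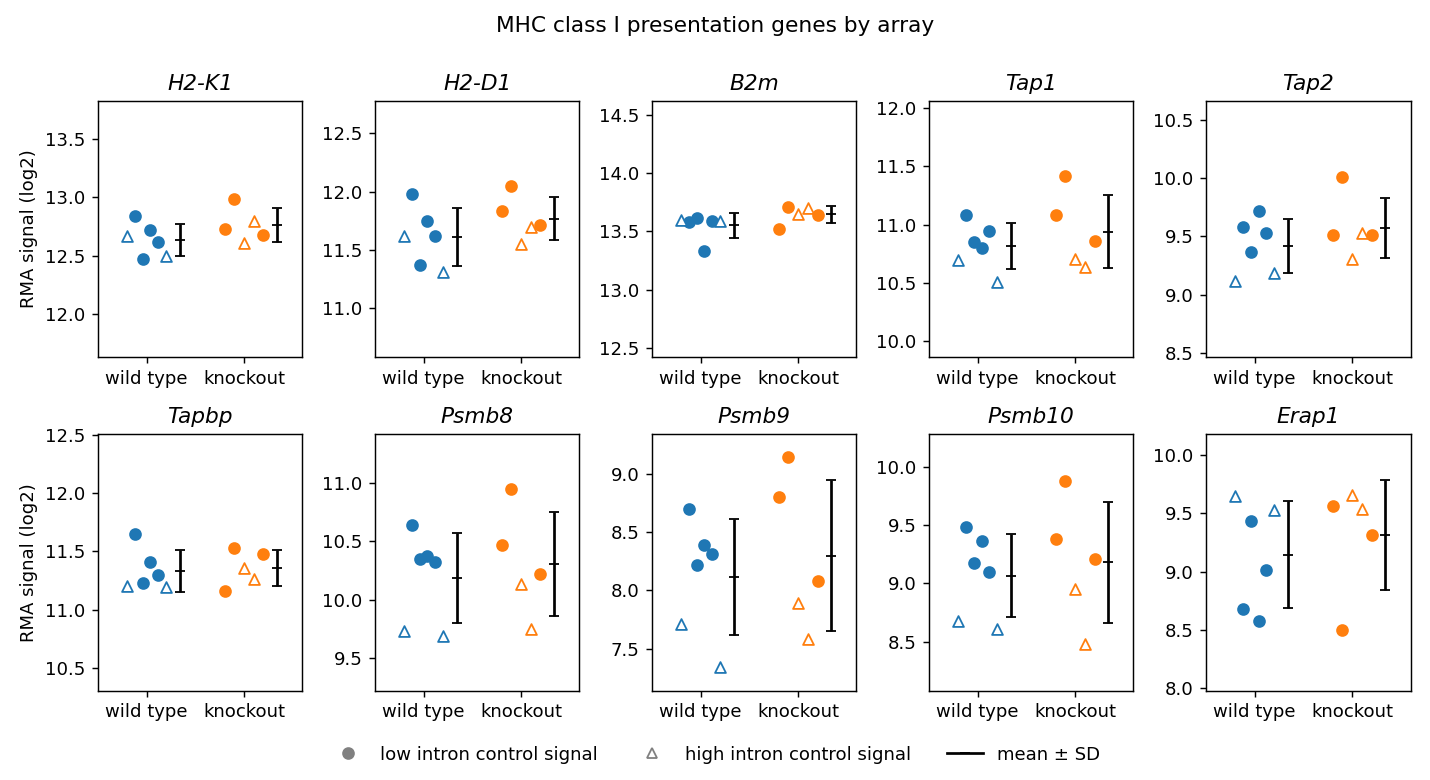
RMA signal (log2, vertical axes spanning the same number of units) of each class I gene on every array, with wild type in blue and knockout in orange; filled circles are the 7 arrays of low and open triangles the 4 of high intron control signal, and black bars are the mean ± SD (n = 6 and n = 5). The genotypes overlap for every gene, and for Psmb8, Psmb9 and Psmb10 the triangles lie below the circles in both genotypes.

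H2-K1, a classical heavy chain, had a low of 12.47, a median of 12.65 and a high of 12.84 on the 6 wild type arrays. Its knockout values were 12.73, 12.99, 12.61, 12.80 and 12.68 in array order. The groups overlapped, with knockout array 2 highest. The means were 12.64 ± 0.14 (SD, n = 6) and 12.76 ± 0.15 (SD, n = 5), and the difference of 0.13 (SE 0.11, 95% interval -0.11 to 0.36) had an exact permutation p = 0.186 (two-sided, as are all such tests here; the smallest possible is 0.0022).

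H2-D1, the other classical heavy chain, ran from 11.31 through a median of 11.62 to 11.98 in wild type. In knockout it read 11.83, 12.05, 11.55, 11.70 and 11.71. Knockout array 2 was again highest, wild type array 6 was lowest, and 4 of 5 knockout arrays stood above the wild type mean. The difference was 0.16 (SE 0.14, 95% interval -0.14 to 0.45), within the spread of both groups (exact permutation p = 0.260).

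B2m, the light chain needed by every classical class I molecule, had wild type values with a low of 13.33, a median of 13.59 and a high of 13.61. The knockout arrays read 13.52, 13.71, 13.65, 13.70 and 13.64. Wild type array 4 was the low value, and the other wild type arrays lay within 13.58 to 13.61, inside the knockout range. The means were 13.55 ± 0.11 (SD, n = 6) and 13.64 ± 0.08 (SD, n = 5), a difference of 0.09 (SE 0.09, 95% interval -0.11 to 0.29; exact permutation p = 0.123). B2m lay within 0.16 of the highest value of its array on all 11 arrays and was itself the highest on 5 of them, so its range stands at the top of the scale, and whether the signal was saturated was not tested.

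Tap1, a TAP transporter subunit, ran from 10.51 through a median of 10.83 to 11.08 in wild type and read 11.08, 11.42, 10.71, 10.64 and 10.86 in knockout. Knockout arrays 3 and 4 lay below the wild type median, and knockout array 2 stood above all others. The difference was 0.13 (SE 0.15, 95% interval -0.20 to 0.45; exact permutation p = 0.455). Tap2, the partner subunit, ran from 9.12 through 9.45 to 9.72 in wild type and read 9.51, 10.01, 9.31, 9.53 and 9.51 in knockout. Its groups overlapped on all knockout arrays except array 2, and the difference of 0.16 (SE 0.15, 95% interval -0.16 to 0.47) had an exact permutation p = 0.333.

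Tapbp, tapasin, varied little: 11.19 to 11.65 in wild type with a median of 11.27, and 11.16, 11.53, 11.36, 11.26 and 11.48 in knockout. It had the smallest difference of the 10 genes, 0.03 (SE 0.12, 95% interval -0.22 to 0.28; exact permutation p = 0.792), and an upper bound of 1.21-fold. Here wild type array 2, not knockout array 2, was highest.

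The immunoproteasome subunits had the widest ranges of the 10 genes over the 11 arrays. A range over all arrays cannot be smaller than a difference of group means, so the ranges only describe spread. Psmb8 (LMP7) ran from 9.69 through a median of 10.34 to 10.64 in wild type and read 10.47, 10.95, 10.13, 9.75 and 10.22 in knockout. Its range over the 11 arrays was 2.39-fold, and its genotype difference 0.12 (SE 0.22, 95% interval -0.36 to 0.60; exact permutation p = 0.630). Psmb9 (LMP2) ran from 7.34 through 8.27 to 8.70 in wild type and read 8.80, 9.14, 7.89, 7.58 and 8.08 in knockout. Knockout arrays 1 and 2 stood above every wild type array and the other knockout arrays below the wild type mean of 8.11 ± 0.50 (SD, n = 6). Its range was 3.48-fold, the widest of the 10 genes, and its genotype difference 0.19 (SE 0.30, 95% interval -0.45 to 0.83; exact permutation p = 0.602). Psmb10 (MECL-1) ran from 8.61 through 9.14 to 9.48 in wild type and read 9.38, 9.88, 8.95, 8.48 and 9.21 in knockout. The genotype difference of Psmb10 was 0.11 (SE 0.23, 95% interval -0.39 to 0.61; exact permutation p = 0.671), with a range of 2.64-fold over the arrays.

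Erap1, the peptidase that shortens peptides to the length class I molecules hold, had wild type values from 8.58 through a median of 9.22 to 9.65. In knockout it read 9.56, 8.50, 9.66, 9.54 and 9.31, so that knockout array 2, highest for 8 of the other genes, was the lowest here. Its difference was 0.17 (SE 0.25, 95% interval -0.36 to 0.70; exact permutation p = 0.545). Across the set, the upper ends of the 95% intervals ran from 1.21-fold (Tapbp) and 1.23-fold (B2m) to 1.77-fold (Psmb9), so a 1.5-fold increase lay outside the interval of H2-K1, H2-D1, Tap1, Tap2 and Tapbp and inside that of Psmb8, Psmb9, Psmb10 and Erap1. The interval of B2m was not read as a bound, since its signal stood at the top of the scale and saturation was not tested. H2-K1 lay 0.64 to 1.25 below the highest value of its array, and saturation was not tested for it either. The adjusted p-values from limma ran from 0.811 (H2-K1) to 0.974 (Tapbp).

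Knockout array 2 was the highest of the 11 arrays for 8 of the 10 genes and also had the highest macrophage marker mean (10.04). It had the highest NK cell (6.95) and stellate cell (9.51) marker means as well, and the lowest intron control mean (5.05). Without it the differences of Psmb8, Psmb9, Psmb10 and Tapbp were -0.04, -0.02, -0.06 and -0.015, those of Tap1 and Tap2 were 0.0075 and 0.05, that of Erap1 was 0.37, 6 of 10 members had a difference above 0, and the median difference was 0.03.

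When the mean of the macrophage markers entered the fit as a covariate, 3 of 10 members had a difference above 0. In that fit the differences were 0.00 for H2-K1, -0.04 for H2-D1, 0.10 for B2m, -0.18 for Tap1, -0.15 for Tap2, -0.07 for Tapbp, -0.31 for Psmb8, -0.42 for Psmb9 and -0.35 for Psmb10. Erap1 was 0.71 higher in knockout (SE 0.23, 95% interval 0.23 to 1.20) and passed the study's rule, which 5.37% of all clusters did upwards in this fit. The macrophage markers are themselves higher in knockout, and the part that other cells have in the class I values was not tested.

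**Figure D2:**
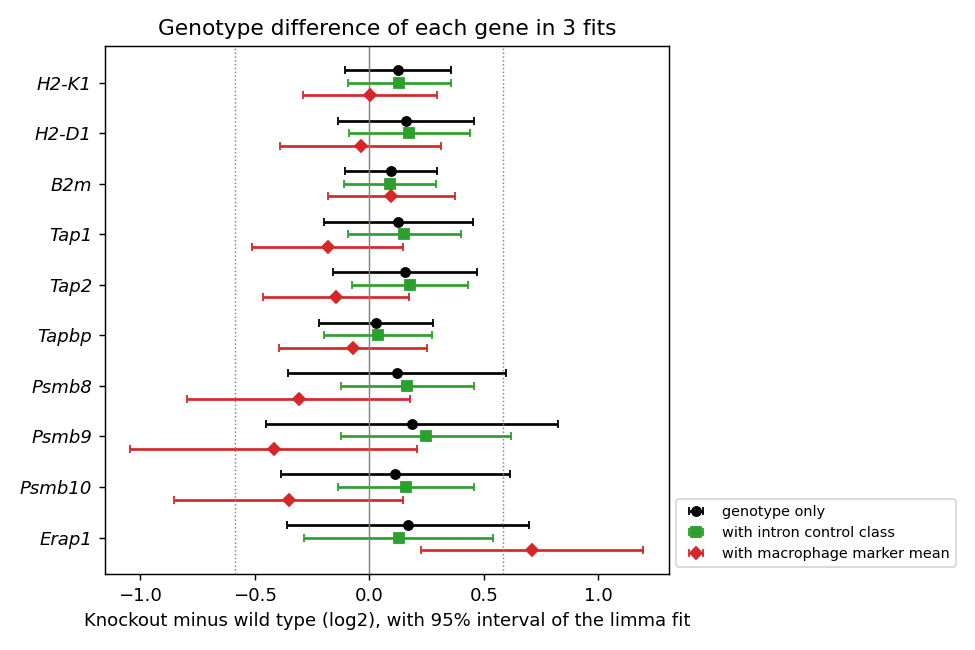
Knockout minus wild type difference of each gene (log2, horizontal axis) with the 95% interval of the limma fit: genotype only (black circles), with intron control class as a block (green squares) and with the macrophage mean as covariate (red diamonds); dotted lines mark a 1.5-fold change either way. The black points lie between 0.03 and 0.19 with intervals that cover 0, and among the red points only that of Erap1 (0.71) has an interval above 0.

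Part of the class I set separated by intron control signal within both genotypes. Tap1, Psmb8, Psmb9 and Psmb10 (4 of 10) were lower on every high intron control array than on any low one, in wild type and again in knockout; 9.65% of all clusters met this criterion. None of the 10 was higher without overlap in both genotypes, which 8.62% of clusters were. Psmb9 read 7.34 to 7.71 on the high and 8.22 to 8.70 on the low arrays in wild type, and 7.58 to 7.89 against 8.08 to 9.14 in knockout. The mean of the high arrays was thus -0.88 from that of the low ones in wild type and -0.94 in knockout, or 1.84-fold and 1.92-fold lower. For Psmb8 these differences were -0.71 and -0.61, for Psmb10 -0.63 and -0.78, and for Tap1 -0.32 and -0.45.

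Tap2 (-0.40 and -0.26), Tapbp (-0.20 and -0.08), H2-D1 (-0.22 and -0.24) and H2-K1 (-0.08 and -0.10) were lower on average with overlap in at least 1 genotype, and B2m differed by 0.07 and 0.05. Erap1 went the other way, by 0.67 in wild type (9.53 to 9.65 on high arrays, 8.58 to 9.43 on low ones) and 0.48 in knockout, where the ranges of 9.54 to 9.66 and 8.50 to 9.56 overlapped. The classes were set by the control probes after the data were seen, and the labels name no technical batch that matches them.

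**Figure D3:**
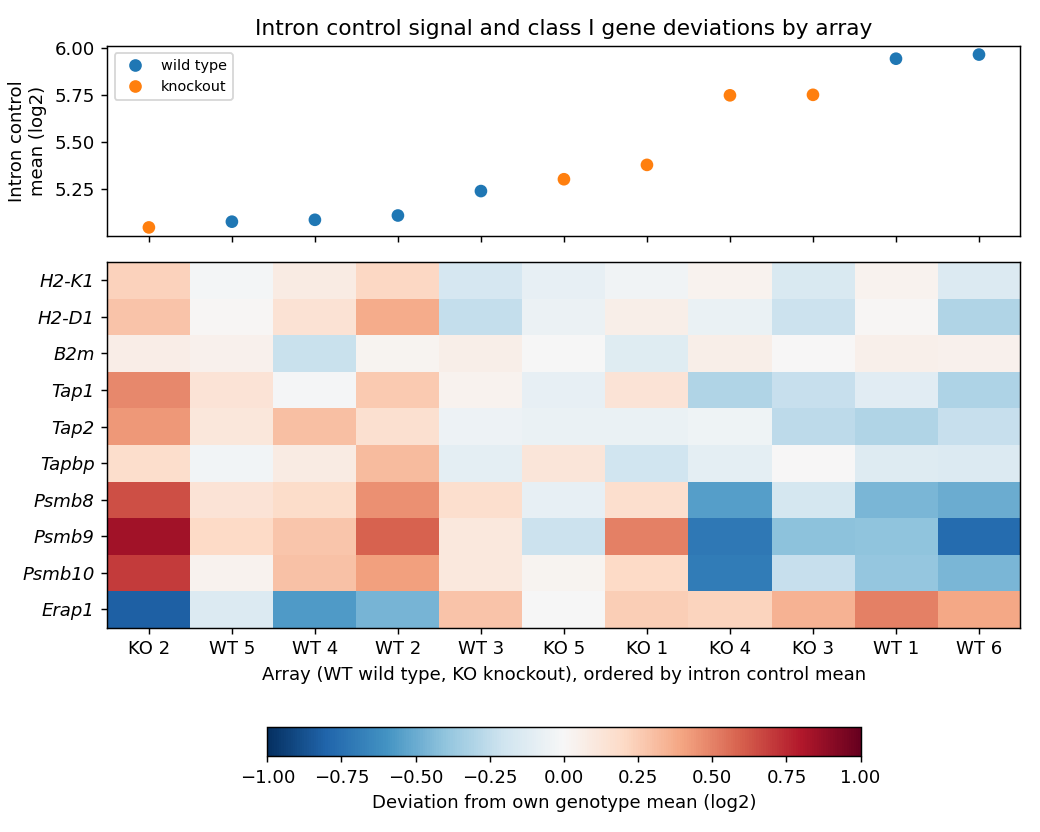
Top, mean intron control signal (log2) of each array, in rising order, wild type in blue and knockout in orange. Bottom, deviation of each class I gene from its own genotype mean (log2, colour scale from -1 in blue to 1 in red) on the same arrays, where the immunoproteasome genes and Tap1 are blue and Erap1 is red on the 4 arrays at the right.

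Because both classes held arrays of both genotypes, the genotype difference could be read inside each. Among the 7 low arrays it was 0.27 for Psmb9, 0.13 for Psmb8, 0.21 for Psmb10, 0.20 for Tap1 and 0.20 for Erap1, and among the 4 high arrays 0.21, 0.23, 0.07, 0.07 and 0.01 in the same order. H2-K1 differed by 0.14 and 0.12, H2-D1 by 0.18 and 0.16, B2m by 0.10 and 0.08, Tap2 by 0.13 and 0.27, and Tapbp by -0.01 and 0.12. With the class as a block, the differences ran from 0.04 (Tapbp) to 0.25 (Psmb9) and the standard error of Psmb9 was 0.17 in place of 0.30. No member passed the study's rule or an adjusted p of 0.05 in these limma fits.

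After each gene was centred on its genotype mean, 8 members correlated positively in every pair over the 11 arrays, Tapbp least closely, and B2m and Erap1 did not join them. These correlations are descriptions over arrays that differ in intron control class, so values in the 7 low arrays are given beside them. H2-K1 and H2-D1 correlated with r = 0.94 (rho = 0.84; r = 0.97 in the 7 arrays; r = 0.92 without the 2 arrays farthest from the median). Psmb8 and Psmb10 reached r = 0.98 (rho = 0.99; 0.96 in the 7 arrays; 0.96 without the 2 farthest). For Tap1 and Psmb9, the divergent neighbours printed above, r was 0.96 (rho = 0.97; 0.91 in the 7 arrays; 0.94 without the 2 farthest). Psmb9 was as close to Psmb10 on chromosome 8 (r = 0.96), so the tie was not particular to these neighbours. The 6 pairs among Tap1 and the immunoproteasome genes had a median r of 0.96 (0.92 in the 7 arrays). The 28 pairs among the 8 members ran from 0.52 to 0.98 with a median of 0.74, and from 0.27 to 0.97 with a median of 0.77 in the 7 arrays; without the 2 farthest arrays the median was 0.55. The weakest ties were those of Tapbp, which without the 2 farthest arrays had r = 0.09 with Psmb9, 0.28 with Tap1 and 0.29 with Psmb8. Tap1 and Tap2 were less tightly tied (r = 0.77; rho = 0.65; 0.68 in the 7 arrays; 0.41 without the 2 farthest).

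Erap1 ran against the 8 others with r between -0.96 (Tap2) and -0.75, between -0.96 and -0.59 in the 7 low arrays, and between -0.91 and -0.41 without the 2 farthest. Its array-to-array range was 2.23-fold. B2m had r between -0.27 and 0.23 with the 9 others over the 11 arrays and between -0.08 and 0.45 (Tap1) in the 7 low arrays. Without the 2 farthest arrays its r was -0.67 with Psmb9, -0.62 with Tap1 and -0.61 with Psmb10, so the sign and size rested on which arrays were used. Its own range was 1.30-fold, the narrowest of the 10.

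**Figure D4:**
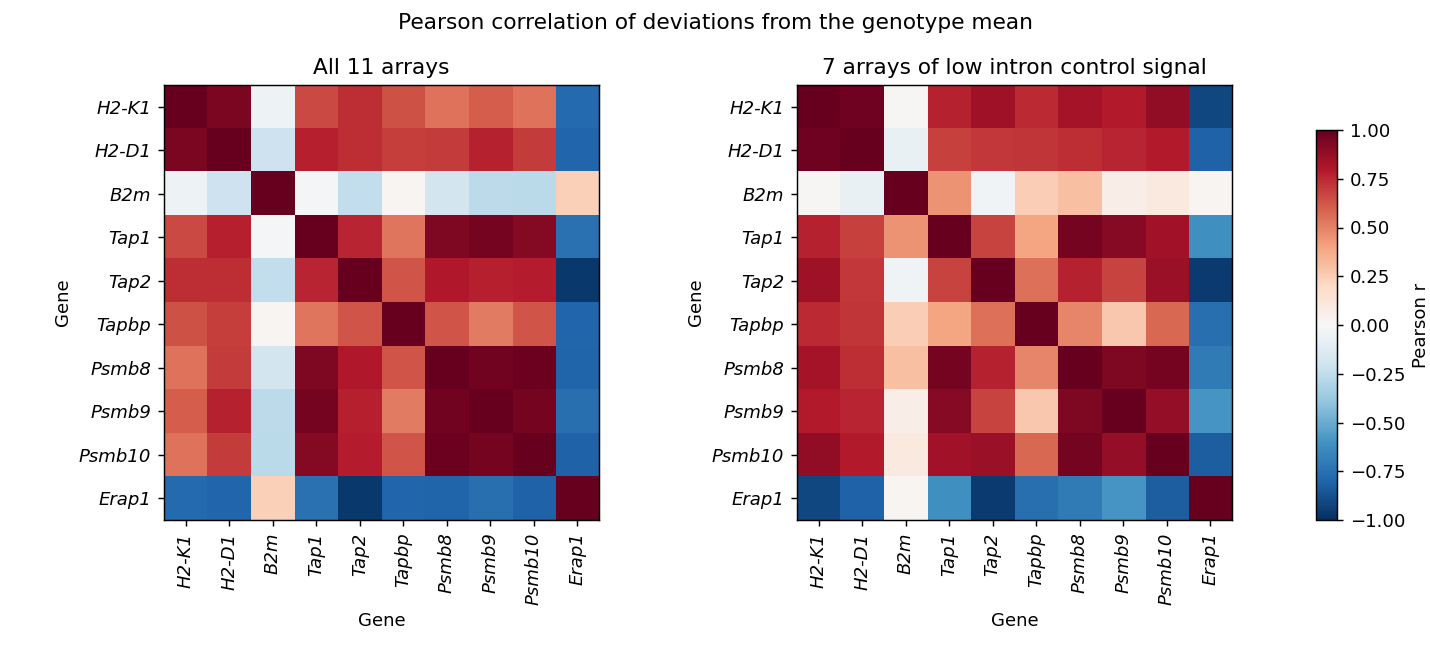
Pearson correlation of deviations from the genotype mean between each pair of class I genes (colour scale from -1 in blue to 1 in red), over all 11 arrays at the left and over the 7 arrays of low intron control signal at the right. The red block of H2-K1, H2-D1, Tap1, Tap2, Tapbp and the Psmb genes, the blue Erap1 row and the pale B2m row appear in the left panel, and in the right panel the B2m and Tap1 pair is orange.

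The first principal component of all clusters held 41.3% of the variance on these arrays. Of 19495 other genes, 592 (3.04%) correlated above 0.9 with the mean of the centred class I genes and 203 (1.04%) below -0.9. The 5 closest were Cnot10, Spns2, Serhl, Rp9 and Hadha, each with r = 0.98 over 11 arrays.

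The subunits that immunoproteasomes displace gave a comparison inside each array. Psmb6, replaced by Psmb9, differed by 0.08 (SE 0.12) and Psmb7, replaced by Psmb10, by 0.08 (SE 0.09) between genotypes; Psmb5 was not analysed here. The change of Psmb9 exceeded that of Psmb6 by 0.10 (exact permutation p = 0.738, adjusted 0.881 over the 2 pairs), and that of Psmb10 exceeded that of Psmb7 by 0.04 (exact permutation p = 0.881, adjusted 0.881). On the high intron control arrays, Psmb9 minus Psmb6 differed from the low arrays by -0.82 in wild type and -0.82 in knockout, and Psmb10 minus Psmb7 by -0.65 and -0.67, without overlap in either genotype. Psmb6 itself differed by -0.07 and -0.12 between these classes and Psmb7 by 0.02 and -0.11.

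The remaining class I pathway was represented by 42 measured genes, of which 33 had a difference above 0, 9 below, and the median was 0.08. By the study's rule 0 were higher and 1 was lower in knockout. In limma 0 of the 42 had an adjusted p of at most 0.05 and 2 had an unadjusted p that low. Of all 22206 clusters, 579 upwards and 840 downwards had an unadjusted limma p of at most 0.05. The peptide-loading chaperones did not pass: Tapbpl, the tapasin relative that edits peptides, differed by 0.16 (SE 0.12), the oxidoreductase Pdia3 by 0.14 (SE 0.17), calnexin (Canx) by 0.05 (SE 0.18) and calreticulin (Calr) by 0.04 (SE 0.15). Of the 4 cap and assembly genes none passed, with Psme1 of the PA28 activator at 0.13 (SE 0.12) and the assembly factor Pomp at 0.15 (SE 0.16). Psme2, the other PA28 subunit, ran from 9.60 to 10.06 in wild type and read 10.33, 10, 10.18, 10.10 and 10.19 in knockout. Its difference of 0.23 (SE 0.11) placed all 5 knockout arrays above the wild type mean (exact permutation p = 0.028, limma adjusted p = 0.765). Psme1 and the inhibitor Psmf1 were lower without overlap on the high intron control arrays of both genotypes, as were 9.65% of all clusters.

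The other peptidases gave 0.31 (SE 0.16) for Lap3, 0.24 (SE 0.34) for Npepps and 0.10 (SE 0.29) for Tpp2, none of which passed. Thop1, the other one measured, gave -0.05 (SE 0.15). Npepps and Tpp2 were higher without overlap on the high intron control arrays in both genotypes, as were 8.62% of all clusters. Erap1 was higher there too, with overlap in knockout. Lap3 and Thop1 did not share this, and Thop1 differed by -0.40 in wild type and 0.10 in knockout. Npepps and Tpp2 act on peptides in the cytosol, and whether a peptidase's location has a part in this pattern was not tested.

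Among 13 measured regulators, 10 had a difference above 0 and the median was 0.09, and none passed the study's rule. Ifngr1, the ligand-binding chain of the interferon gamma receptor, ran from 8.76 through a median of 8.86 to 8.95 in wild type and read 9.09, 9.37, 9.0, 9.01 and 9.04 in knockout. Every knockout array lay above every wild type array, which held for 0.18% of all clusters. Chance alone gives this order in 1 of 462 splits of the arrays (0.0022), so that share is no excess over chance. Ifngr1 was also named for having the smallest p of the 13. Its means were 8.86 ± 0.07 (SD, n = 6) and 9.10 ± 0.15 (SD, n = 5), 1.19-fold apart, with a difference of 0.25 (SE 0.10), an unadjusted exact permutation p = 0.0022 (the smallest possible) and a limma adjusted p = 0.765 over all clusters. With the macrophage mean in the fit, the Ifngr1 difference was 0.09 (95% interval -0.16 to 0.35), and the part of macrophages in it was not tested. The signalling chain Ifngr2 differed by 0.21 (SE 0.17), and Ifnar2 of the type I interferon receptor by 0.14 (SE 0.14).

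Irf1, the transcription factor through which interferon gamma induces several class I genes, had a difference of -0.11 (SE 0.22), with 11.25 to 12.19 in wild type and 12.10, 12.17, 11.39, 11.06 and 11.53 in knockout. It was lower without overlap on the high intron control arrays, by -0.58 in wild type and -0.71 in knockout, as Psmb8, Psmb9, Psmb10 and Tap1 were. Ifnar2, Rela and Rfxank shared that pattern, which made 4 of 13 regulators against 9.65% of all clusters, and Jak2 alone (1 of 13, against 8.62%) had the opposite one. The same lower pattern held for 3 of 15 nonclassical class I genes and relatives (H2-T24, H2-M3 and H2-T22), for 2 of 4 proteasome cap and assembly genes and for 1 of 6 class II genes (H2-DMa). Nlrc5 was not analysed here.

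The 15 measured nonclassical class I genes and relatives had a median of 0.02, with 11 above 0. Azgp1, a secreted class I fold protein made by hepatocytes, was the 1 gene lower by the study's rule (0.356% of clusters). In wild type it ran from 8.04 to 9.41, and in knockout it read 7.74, 9.13, 7.89, 7.06 and 7.23. The groups overlapped through knockout array 2, and the difference of -0.79 (SE 0.35) had an exact permutation p = 0.089 and a limma adjusted p = 0.765. With the hepatocyte mean in the fit it was 0.17 (95% interval -0.15 to 0.49), and 7 of 11 fits that each left out 1 array (wild type 1, 4 or 5, or knockout 1, 3, 4 or 5) lost the call. H2-Q4 differed by 0.20 (SE 0.15) and H2-T24 by -0.12 (SE 0.15).

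Targets of interferon gamma outside the class I pathway had 9 of 13 differences above 0 and a median of 0.06, and none passed the rule. Of the 13, Ido1 lay below the antigenomic background on all 11 arrays, and its difference (-0.065) is counted among those below 0. The guanylate-binding proteins Gbp2 and Gbp3 differed by 0.33 (SE 0.17) and 0.26 (SE 0.21) and the chemokine Cxcl9 by 0.10 (SE 0.09). None of the 13 separated by intron control class in both genotypes. Class II genes, which present extracellular peptides to CD4 T cells, had 6 of 6 differences above 0 and a median of 0.80, against 0.13 for the class I genes, and none passed. H2-Aa differed by 0.78 (SE 0.41), H2-DMb1 by 0.90 (SE 0.49) and H2-DMa by 0.83 (SE 0.46). The class II list mean was highest on knockout array 2 (10.30), the array with the highest macrophage mean, and whether these move together through cell content was not tested.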

How the data were processed

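The deposited values are log2 signals that the authors made with RMA in Affymetrix Expression Console, per the submitters' processing notes. RMA equalizes probe distributions between arrays, which removes a change shared by most genes. Per the labels' protocols, cDNA was made from 100 ng of Trizol-extracted total RNA. Cell isolation, mouse strain, H2 haplotype and software versions are not given in the sources used here. Scanner files were not used here.

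Of 28846 rows, 6640 controls were left out and 22206 clusters tested; 19572 had 1 symbol and 2634 none. The genotype fit used lmFit and eBayes of limma 3.58.1 (R 4.3.3), tested on simulated data, with Benjamini-Hochberg adjustment, and single genes with a two-sided exact permutation test. The members and lists were chosen with earlier results of these data known. Named were all members, the 3 pathway genes per list with the smallest p, fixed genes of the pathway and the 5 closest correlates. Separately named after their values were seen: Psmf1, Thop1, Rela, Rfxank, Jak2, Ifnar1, H2-M3, H2-T22 and Ido1. Arrays sharing a replicate number did not deviate together (r from -0.32 to 0.39), so numbers were treated as names. Alternatives left out each array or changed the block, normalization, weights, covariates, variance model or thresholds; the intron control class was added after the data were seen.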

Additional observations from a re-analysis of the deposited data

Results flagged for a closer look

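B2m on wild type array 4 read 13.33, and its gap to the nearest of the other wild type arrays was 0.893 of the whole range of that group. The highest value of any cluster on this array was 13.36, while the other arrays reached between 13.52 and 13.79. It was 1 of 20 groups of values tested this way (10 genes in both genotypes), and chance marks about 1 in 20.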

How the results depend on the processing

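Of 260 member values under 26 alternatives, 233 kept their direction and their side of the study's rule. Among the rest, 2 were 0 (Tapbp with a replicate block and without wild type array 6), 24 changed sign and 1 (Erap1 with the macrophage mean) passed the rule. The variance model, the brighter clusters alone and the mean of a symbol's clusters could not alter a member's difference. Each gene is fitted by itself and each member had a single cluster. Those values equalled the genotype fit and were among the 233. The macrophage mean as a covariate gave -0.0383 for H2-D1, -0.18 for Tap1, -0.15 for Tap2, -0.0722 for Tapbp, -0.31 for Psmb8, -0.42 for Psmb9 and -0.35 for Psmb10, and 1 member called. Both marker means gave -0.0481 for H2-K1, -0.10 for H2-D1, -0.17 for Tap1, -0.23 for Tap2, -0.22 for Tapbp, -0.26 for Psmb8, -0.27 for Psmb9 and -0.35 for Psmb10. The hepatocyte mean gave -0.20 for Erap1, array weights -0.00012 for Psmb8 and -0.0034 for Psmb9, and the low intron control class -0.0075 for Tapbp. The members' median of 0.13 became -0.11 with the macrophage mean, 0.32 with the hepatocyte mean and -0.19 with both, and that of the other pathway genes became -0.12 with the macrophage mean and -0.0655 with both. The difference of changes of Psmb10 against Psmb7 was -0.43 with the macrophage mean. The cause of these shifts was not tested. With 1 array left out, differences ran from -0.015 to 0.092 for Tapbp, -0.0408 to 0.26 for Psmb8, -0.0242 to 0.37 for Psmb9 and -0.0617 to 0.29 for Psmb10, all 4 below 0 without knockout array 2 and Tapbp also without knockout array 5 (-0.0025).

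The count of 1 other pathway gene called (Azgp1) became 0 with a replicate block, with both marker means and in the low intron control class; with the hepatocyte mean Azgp1 was lost and Ifnar1 was called, the macrophage mean gave 3, and leaving out 1 array gave 0 to 1. Clusters past an adjusted p of 0.05 numbered 0 in limma, 24 with the macrophage mean, 49 with the hepatocyte mean and 0 to 1 with an array left out (1 without wild type array 5). The 149 clusters higher by the study's rule became 99 with array weights, 1192 with the macrophage mean, 487 with the hepatocyte mean, 254 in the low intron control class, 579 with no fold limit and 111 to 245 with an array left out (224 without wild type array 5, 245 without knockout array 3). The 79 lower became 146 with weights, 483 with the macrophage mean, 568 with both means, 47 among brighter clusters, 136 in the high intron control class, 840 with no fold limit and 37 to 138 with an array left out (50 and 37 without wild type arrays 4 and 5, and 48, 138, 40 and 38 without knockout arrays 1, 2, 4 and 5). The replicate block gave 158 higher and 92 lower, left 0 members called and put Erap1 at 0.24.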
